A study of Homo sapiens with 4 samples.

Results

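Metallothioneins are described here in human proximal tubular cells (HPTCs) through the 9 genes MT1A, MT1B, MT1E, MT1F, MT1G, MT1H, MT1M, MT1X and MT2A. All non-control probes carrying 1 of these gene names were taken, which gave 11 probes of 34127 and 9 gene names of 25992 on the array. MT1E and MT1X have 2 probes each and every other member has 1. The study placed 2 cell lines on 1-colour oligonucleotide arrays (Human GE 4x44K v2). HK-2 is an HPTC line immortalised with papillomavirus genes, and RPTEC/TERT1 is one immortalised with telomerase, so each label stands for a single cultured line. All 4 arrays, of which 2 carry the label HK-2 and 2 the label RPTEC/TERT1, come from cells kept without serum or supplements for 24 h before they were given interleukin-1β (IL-1β, 10 ng/mL) together with the SGLT2 inhibitor empagliflozin (Empa, 500 nM) for 24 h. Unstimulated cells and cells given IL-1β or Empa alone were not analysed here, so the values carry no information on what IL-1β or Empa did to these genes. The duplicates are biological per the methods, and replicate 1 of both labels was scanned on one day and replicate 2 on another. An array is named below by its label and replicate number, so that HK-2 array 1 is the first HK-2 replicate.

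Metallothioneins are small cysteine-rich proteins that bind zinc, copper and cadmium and buffer free zinc in the cell. Their genes lie in a cluster and are switched on by metals through MTF1, a zinc-sensing factor that binds metal response elements in their promoters, and also by glucocorticoids, oxidants and inflammatory cytokines. In the kidney the proximal tubule takes up metal-loaded metallothionein, which is known for its part in cadmium handling and nephrotoxicity. MT2A and the MT1 genes are broadly expressed paralogues, whereas MT3 is best known from brain and MT4 from stratified epithelium.

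The member probes lie within 74.7 kb of the long arm of chromosome 16, from chr16:56643332 to 56718021 in GRCh37, the build of the array annotation. Of the 9 genes, 8 are read on the plus strand and 1, MT1G, on the minus strand. In order along the chromosome the probes are MT2A at chr16:56643332-56643391, MT1E at chr16:56660614-56660673 and chr16:56660853-56660912, MT1M at chr16:56667810-56667869, MT1A at chr16:56673205-56673808, MT1B at chr16:56686948-56687007, MT1F at chr16:56693077-56693136, MT1G at chr16:56700694-56700752, MT1H at chr16:56704902-56704961, and MT1X at chr16:56717082-56717141 and chr16:56717962-56718021. The MT1A probe covers 604 bases of genome and so crosses at least 1 splice junction. Exon and UTR positions of the other probes were not assigned here, since no annotation of that build was used.

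Several of these probes are close copies of each other, which limits how far a signal belongs to 1 gene. The MT1F probe, the MT1X probe at chr16:56717962-56718021 and the MT1H probe could be aligned end to end without a gap, and they are shown because the widest differences below between arrays well above background come from the MT1F and MT1X probes. Their first 30 bases are printed with capitals at the 9 positions where the 3 probes are not all the same.
MT1F: tgCcAggacaAcCTtTctCCcagatgTaaa
MT1X: tgCcAggacaGcTGtGctCTcagatgTaaa
MT1H: tgTcGggacaGcCCtGctGTcagatgAaaa
Over all 60 bases the MT1F and MT1X probes share 49 and differ at 11. The MT1H probe differs from the MT1F probe at 14 of 60 bases and from the MT1X probe at 16. The MT1B probe and 1 MT1E probe (A_23_P206724) match at 49 of 59 aligned bases.

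The other MT1X probe (A_33_P3350056), the MT1A probe and a probe for the related gene MT1HL1 on chromosome 1 are shown because they hold long runs of bases in common. Capitals mark, in the MT1X and MT1HL1 probes, the 26-base run that both hold and, in the MT1A probe, a 27-base run that it shares with the MT1HL1 probe.
MT1X: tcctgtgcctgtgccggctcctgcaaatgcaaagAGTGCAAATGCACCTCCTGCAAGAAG
MT1HL1: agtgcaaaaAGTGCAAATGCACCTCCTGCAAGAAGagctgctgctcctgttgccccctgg
MT1A: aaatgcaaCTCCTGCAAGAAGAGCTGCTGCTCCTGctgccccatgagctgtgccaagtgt
The array's own annotation lists this MT1X probe for MT1B as well, the MT1A probe for MT1M as well and the MT1HL1 probe for MT1H as well. The second MT1E probe (A_23_P420942) was designed on a predicted transcript variant. A signal of these probes can therefore hold RNA of more than 1 member, and how much each member gave was not tested.

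Promoter sequence around the transcription start was found for 4 of the 9 members, MT1B, MT1H, MT1X and MT2A, in RefSeq on GRCh38.p14. MT1A, MT1E, MT1F, MT1G and MT1M had no entry. The core of the metal response element was searched as TGCACNC or TGCGCNC on both strands in 300 bases around the start, most of them upstream. MT1B held 3 matches, MT1X 4, MT1H 8 and MT2A 8, of which 7 in MT2A and all in the others lay before the start. Of 35116 promoters of the same length, 29.6% held at least 1 match, 2.3% at least 3 and 0.601% at least 4. The last 160 bases before the start are printed for MT1H, MT1X and MT2A, with the matches in capitals (on the opposite strand a match reads as its reverse complement).
MT1H, chr16:56669654-56669813, plus strand: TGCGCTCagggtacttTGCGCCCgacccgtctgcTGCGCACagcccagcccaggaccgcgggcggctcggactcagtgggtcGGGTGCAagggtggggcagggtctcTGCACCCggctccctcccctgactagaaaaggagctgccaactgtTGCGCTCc
MT1X, chr16:56682310-56682469, plus strand: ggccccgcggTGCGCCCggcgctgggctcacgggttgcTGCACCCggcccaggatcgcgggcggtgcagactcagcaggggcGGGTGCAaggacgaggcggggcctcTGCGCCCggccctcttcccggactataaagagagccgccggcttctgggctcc
MT2A, chr16:56608424-56608583, plus strand: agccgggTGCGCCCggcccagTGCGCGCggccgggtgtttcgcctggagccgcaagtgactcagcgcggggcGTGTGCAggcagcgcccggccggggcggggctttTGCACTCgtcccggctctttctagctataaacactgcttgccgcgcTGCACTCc
The MT1H window held 6 matches, the MT2A window 5 and the MT1X window 4. A TATA box (TATAAA) was present once in MT1B, MT1X and MT2A and not in MT1H with these letters, against 11.5% of all promoters. A GC box (GGGCGG) occurred in all 4, against 45% of all promoters. The antioxidant response element (TGACNNNGC) occurred once in MT1B, MT1X and MT2A, against 13.3%. In MT1X, 1 metal response element match overlapped another motif. For comparison, the promoter of MT4 held 3 metal response element matches, that of SLC30A1, the zinc exporter that MTF1 also controls, held 2, and that of MTF1 itself held 0. These are matches of letters and not measured binding sites.

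**Figure D1:**
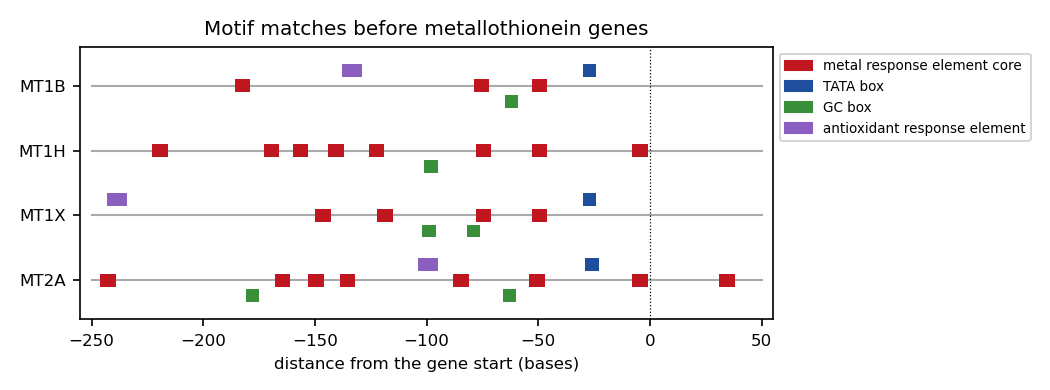
Motif matches in the 300 bases around the start of the 4 members with a promoter entry, by distance from the start in bases (x axis), 1 gene a line. Red marks metal response element cores, with 3 in MT1B, 8 in MT1H, 4 in MT1X and 8 in MT2A, and the other colours mark the TATA box, the GC box and the antioxidant response element.

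The 4 arrays differed in brightness, and they did not fall together by label. The 75th percentile of the spot signal ran from 393 to 748, a 1.90-fold range, 59.2 to 64.9% of the spots were well above background, and 56 to 217 of 43118 spots an array were saturated. Across 17928 genes, levels on HK-2 array 1 correlated at 0.98 with RPTEC/TERT1 array 2 and at 0.865 with HK-2 array 2, while HK-2 array 2 correlated at 0.976 with RPTEC/TERT1 array 1. Both RPTEC/TERT1 arrays correlated at 0.855. The labels are used below as given, and "HK-2" and "RPTEC/TERT1" mean the arrays so labelled. Whether labels were exchanged between arrays cannot be told apart from a difference between cultures in these files. Of 11 proximal tubule markers, 4 (LRP2, SLC22A8, GGT1 and MME) were well above background on all arrays and 4 (CUBN, SLC22A6, ALPL and HNF4A) on none, so the labelled cell type rests on part of its markers. Of 8 kidney epithelium markers, 6 were well above background on all 4 arrays.

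Metallothionein probes were bright, and 5 of 11 reached the end of the scanner's range on at least 1 array. This is 45.5% of the member probes, against 0.621% of all 34127 probes. The MT2A probe was saturated on all 4 arrays, as were 30 probes in all (0.0879%). Of the 11 probes, 3 were saturated on HK-2 array 1, 5 on HK-2 array 2, 1 on RPTEC/TERT1 array 1 and 4 on RPTEC/TERT1 array 2. The 6 probes that were saturated nowhere read MT1F, MT1G, MT1H, MT1M, MT1E (A_23_P420942) and MT1X (A_33_P3236868).

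**Figure D2:**
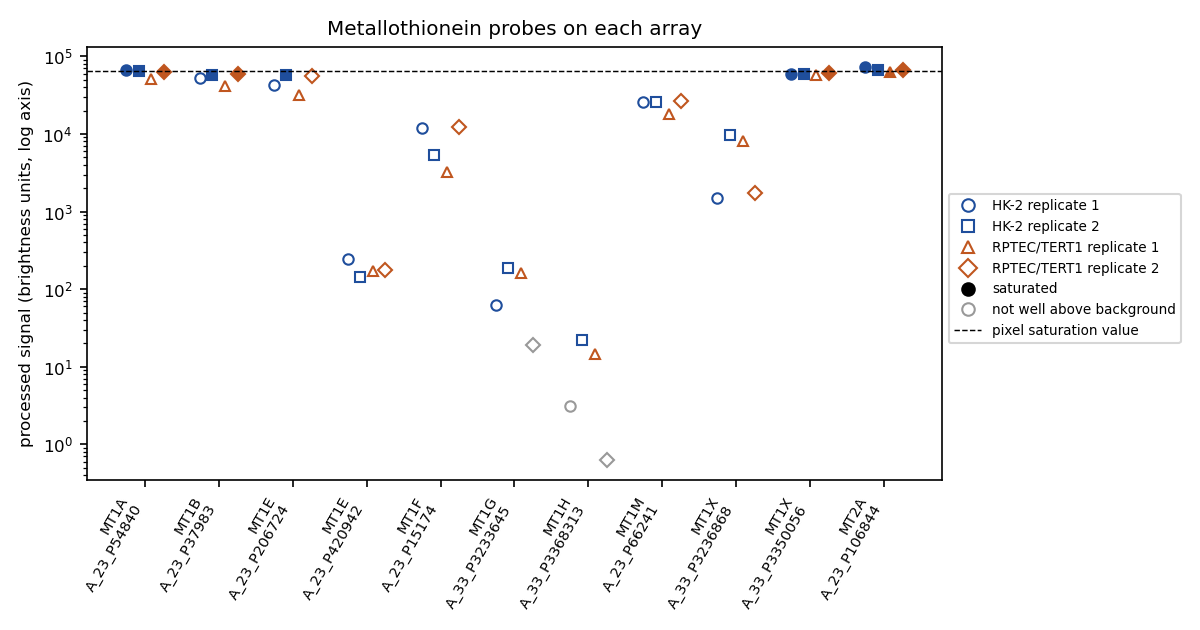
Processed signal of the 11 metallothionein probes on each of the 4 arrays (log axis, brightness units), with filled symbols for saturated spots, grey open symbols for spots not well above background, and a dashed line at the brightness where pixels saturate (65502). MT2A is filled on all 4 arrays, MT1F and 1 MT1X probe spread over 3.89-fold and 6.38-fold, and MT1H and 1 MT1G spot lie near background.

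MT2A, the member most often used as a read-out of metal and stress responses, gave signals of 73504 and 67162 on HK-2 replicates 1 and 2 and of 62438 and 66003 on RPTEC/TERT1 replicates 1 and 2. All 4 lie within 1.18-fold of each other at the ceiling, so no difference in RNA can be read from them. MT1A gave 67140, 63887, 50632 and 62702 in the same order of arrays, with only RPTEC/TERT1 array 1 below saturation. The MT1X probe A_33_P3350056, which can also bind MT1B RNA, gave 59873, 59795, 56811 and 61128, a 1.08-fold range, with RPTEC/TERT1 array 1 again the only array not saturated.

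MT1B gave 52968, 58128, 41604 and 59868, with both replicate 2 arrays saturated. The MT1E probe A_23_P206724 gave 43167, 58136, 32049 and 56074, with only HK-2 array 2 saturated. On all 4 probes that were saturated on some but not all arrays, the dimmest array was RPTEC/TERT1 array 1. Before any scaling, the saturated arrays of these 4 probes set only a lower limit on the range, which was 1.33-fold for MT1A, 1.44-fold for MT1B and 1.81-fold for this MT1E probe.

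To compare arrays, the signal was taken relative to that array's 75th percentile on the log2 scale, which is called the level here. For a probe at the ceiling the level then follows the divisor. The MT2A levels of 7.55 and 6.49 on HK-2 and 7.0 and 7.27 on RPTEC/TERT1 stand in the reverse order of the 75th percentiles of 393, 748, 488 and 429, and their range of 1.06 compares with 0.93 on the log2 scale for the percentiles. The levels of MT1A, MT1B, MT2A and of the saturated probes of MT1E and MT1X are for this reason not read as differences in RNA.

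MT1F, a zinc-binding MT1 isoform, differed widely between arrays, and not by label. Its signals were 11822 and 5285 on HK-2 and 3193 and 12422 on RPTEC/TERT1, none of them saturated. Its levels were 4.91 and 2.82 on HK-2 and 2.71 and 4.86 on RPTEC/TERT1. HK-2 array 1 and RPTEC/TERT1 array 2 were high, the other arrays were low, and the labels overlapped completely. Within replicate 1 the HK-2 array was 4.60-fold brighter (2.20 on the log2 scale), and within replicate 2 it was 4.10-fold dimmer (-2.04). The arrays of 1 label stood as far apart, by 4.25-fold for HK-2 and 4.43-fold for RPTEC/TERT1, whereas HK-2 array 1 and RPTEC/TERT1 array 2 differed by 1.04-fold and HK-2 array 2 and RPTEC/TERT1 array 1 by 1.08-fold.

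The MT1X probe A_33_P3236868 ran the other way. Its signals were 1501 and 9573 on HK-2 and 8136 and 1742 on RPTEC/TERT1. Levels were 1.93 and 3.68 on HK-2 and 4.06 and 2.02 on RPTEC/TERT1, so that the arrays high for MT1F were the low ones here. Within replicate 1 HK-2 was 4.37-fold dimmer (-2.13) and within replicate 2 it was 3.15-fold brighter (1.66). Both HK-2 arrays differed by 3.36-fold and both RPTEC/TERT1 arrays by 4.10-fold.

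Because the MT1F and MT1X probes sit on the same array, the change of their ratio from one array to another does not depend on how arrays were scaled. The ratio of MT1F to MT1X signal was 14.3-fold higher on HK-2 array 1 than on HK-2 array 2 and 20.1-fold higher than on RPTEC/TERT1 array 1. It was 18.2-fold higher on RPTEC/TERT1 array 2 than on RPTEC/TERT1 array 1 and 12.9-fold higher than on HK-2 array 2. The 2 remaining pairs differed little, by 1.10-fold between HK-2 array 1 and RPTEC/TERT1 array 2 and by 1.41-fold between HK-2 array 2 and RPTEC/TERT1 array 1. With a modelled background correction (normexp) the 4 large changes were 3.56, 4.07, -3.59 and -4.11 on the log2 scale, and in the authors' log2 table they were 3.71, 4.17, -3.56 and -4.03 (in the order HK-2 array 1 over array 2, HK-2 over RPTEC/TERT1 in replicate 1, the same in replicate 2, and RPTEC/TERT1 array 1 over array 2). Such a ratio shows that both probes changed unequally and not which of them changed. With 1 array on each side these are values without a test.

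**Figure D3:**
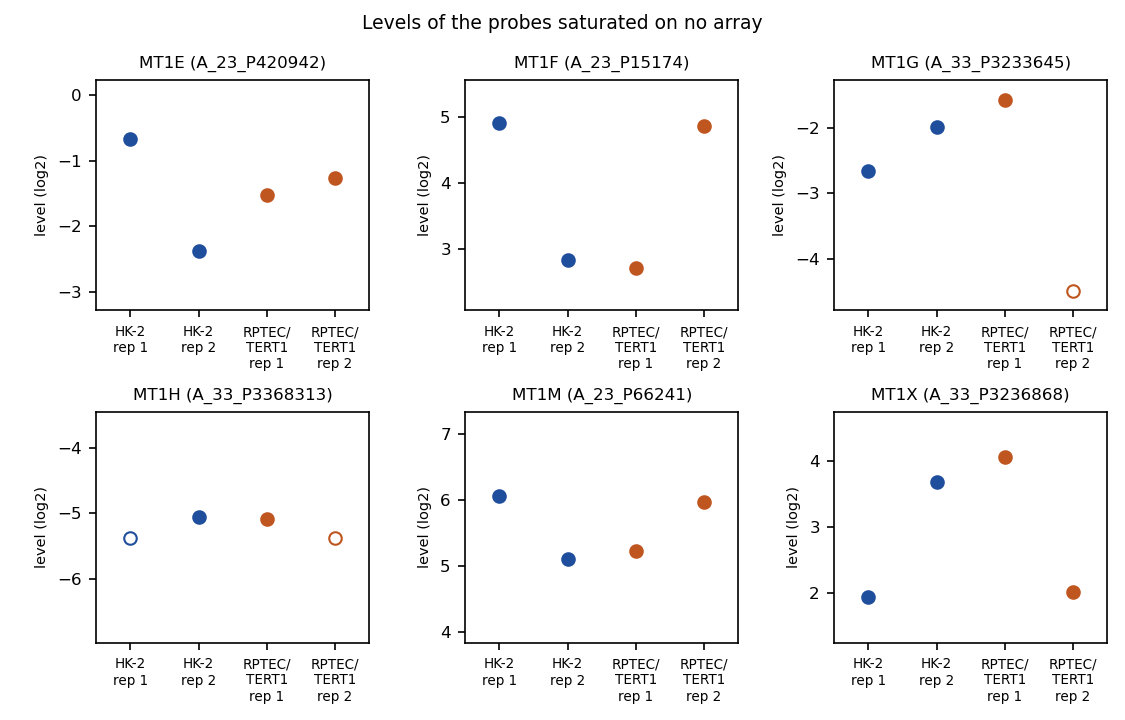
Levels (log2 of signal over the array's 75th percentile, y axis) of the 6 metallothionein probes saturated on no array, 1 point an array, with open points where the spot was not well above background and the same number of log2 units in every panel. MT1F stands at 4.91 and 4.86 on HK-2 array 1 and RPTEC/TERT1 array 2 and at 2.82 and 2.71 on the others, and the MT1X probe shows the opposite order.

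MT1G, the member on the minus strand and a gene known to be induced by zinc in epithelial cells, was dim. Its signals were 62.2 and 188 on HK-2 and 163 and 19.2 on RPTEC/TERT1, the last of them not well above background. Levels were -2.66 and -1.99 on HK-2 and -1.58 and -4.48 on RPTEC/TERT1. RPTEC/TERT1 array 2 was the lowest array, and against it HK-2 array 1 was at least 3.52-fold higher, HK-2 array 2 at least 5.61-fold and RPTEC/TERT1 array 1 at least 7.45-fold. Among the arrays above background the differences were smaller, 1.59-fold between both HK-2 arrays and 2.11-fold between the replicate 1 arrays, with HK-2 array 1 the lower one each time. Both directions turned with the background treatment, before the shift of all probes is taken off. Within replicate 1 HK-2 was lower by 1.08 on the log2 scale here, but higher by 0.96 after normexp and by 0.72 in the authors' table, settings in which the median of all probes also moved, to 0.96 and 1.08. Relative to that median MT1G stood at -1.19 here, 0.0047 after normexp and -0.36 in the authors' table. HK-2 array 1 minus array 2 was -0.67 here, 1.31 after normexp and 0.44 in the authors' table. For this pair the median of all probes was 0.97 after normexp and 0.49 in the authors' table. Relative to it MT1G stood at -0.72 here, 0.34 after normexp and -0.049 in the authors' table. The MT4 probe, well above background on no array, was also highest on HK-2 array 1 in these settings. After normexp it read -0.32 and -3.73 on HK-2 and -3.14 and -2.99 on RPTEC/TERT1. In the authors' table it read 8.15 and 5.90 on HK-2 and 5.89 and 5.96 on RPTEC/TERT1.

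MT1H, a further MT1 isoform, was at the limit of detection on the probe that carries its name. Signals were 3.09 and 22.5 on HK-2 and 14.4 and 0.626 on RPTEC/TERT1, and only HK-2 array 2 and RPTEC/TERT1 array 1 were well above background. Since both lay just over the floor, their bounds against the dimmer arrays were only 1.22- to 1.24-fold. The MT1HL1 probe, which the annotation lists for MT1H as well, was bright on every array. It gave 56569 and 80546 on HK-2 and 42968 and 63302 on RPTEC/TERT1, with HK-2 array 2 saturated. Whether MT1H RNA adds to that signal was not tested, so the dim probe alone does not show that MT1H RNA was scarce.

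MT1M, an MT1 isoform known from liver, stayed below saturation with a narrow range. Its signals of 26153 and 25862 on HK-2 and 18218 and 26915 on RPTEC/TERT1 spanned 1.48-fold, with RPTEC/TERT1 array 1 the lowest. Its levels were 6.06 and 5.11 on HK-2 and 5.22 and 5.97 on RPTEC/TERT1. The signals of both HK-2 arrays were nearly equal while their levels differed by 0.94, and the divisors of these arrays differed by 0.93 on the same scale. Unlike the probes at the ceiling, this one was not saturated, and whether its difference in level is one in RNA was not tested. Within replicate 1 HK-2 was higher by 0.83 and within replicate 2 lower by 0.86, and the first of these turned to -0.32 after normexp.

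The MT1E probe A_23_P420942, on the predicted variant, gave 246 and 144 on HK-2 and 170 and 179 on RPTEC/TERT1. Levels were -0.68 and -2.38 on HK-2 and -1.52 and -1.26 on RPTEC/TERT1, with both RPTEC/TERT1 arrays between the HK-2 arrays. The HK-2 arrays differed by 3.25-fold. The order of the arrays was not compared between the probes of MT1E or of MT1X, since 1 probe of each was saturated on some arrays.

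For MT1F, MT1G, MT1H and MT1M, whose probes were not saturated, the difference between the labels was not larger than the spread between replicates. MT1H was at the floor on HK-2 array 1 and RPTEC/TERT1 array 2, so its difference and spread say little about its RNA. The RPTEC/TERT1 mean and SD of MT1G include a spot not well above background. The fit also held the 5 genes with a saturated probe, for which it says nothing about the RNA. In limma's test across all 16473 genes well above background on at least 2 arrays, 0 genes were called at an adjusted p below 0.05 (0%), and 23 genes (0.14%) had an unadjusted p below 0.05. All 9 members were tested, 0 were called, every adjusted p was 1, and the smallest unadjusted p was 0.555, for MT1G. MT1F stood at 3.87 ± 1.48 in HK-2 and 3.78 ± 1.52 in RPTEC/TERT1 (SD, n = 2 arrays each, limma adjusted p = 1), a difference of 0.08 with a standard error of 1.11. MT1G stood at -2.32 ± 0.47 and -3.03 ± 2.05, a difference of 0.70 with a standard error of 1.10. MT1M differed by -0.01 with a standard error of 0.59. The MT1X probe A_33_P3236868 stood at 2.81 ± 1.23 and 3.04 ± 1.44, a difference of -0.24 with a standard error of 1.01.

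Over the 9 members the median difference between labels was -0.03, beside 0.02 over all genes tested, with 6 members below 0 and 3 above. In no member did both arrays of one label lie above both of the other, while 4.36% of all genes had both HK-2 arrays higher and 2.81% both lower. Of the 9 members, 5 have a saturated probe, and MT1H was not well above background on HK-2 array 1 and RPTEC/TERT1 array 2. The median and these counts therefore say little about the RNA of the family. Standard errors of the members lay between 0.44, for MT1H, and 1.11, for MT1F, on the log2 scale. With 2 arrays a label a cell line difference within that spread was not detectable, and a larger one could also be missed. Leaving out 1 array at a time moved the MT1F difference between -0.99 and 1.16 and that of MT1G between -0.74 and 2.15, so each rests on which array is kept.

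Within a replicate number, metallothioneins differed between labels in opposite directions, as did many probes of the whole array. Among the 6 unsaturated probes, 1 (MT1F) was over 2-fold higher in HK-2 within replicate 1, where 20.2% of 20598 unsaturated probes were, and 2 (MT1X and MT1G) were over 2-fold lower, where 17.3% were. Within replicate 2, 2 (MT1X and MT1G) were over 2-fold higher, against 16.7% of probes, and 2 (MT1F and MT1E) were over 2-fold lower, against 18.3%. The pattern of MT1F, over 2-fold higher within replicate 1 and over 2-fold lower within replicate 2, was shared by 15% of unsaturated probes, and the reverse pattern of MT1X and MT1G by 13.3%. Within a label the same probes stood apart. HK-2 array 1 was over 2-fold above HK-2 array 2 for 2 of the 6 probes (MT1F and MT1E), against 18.1% of unsaturated probes, and over 2-fold below it for 1 (MT1X), against 17.3%. In RPTEC/TERT1, array 1 was over 2-fold above array 2 for 2 (MT1X and MT1G), against 19.3%, and over 2-fold below it for 1 (MT1F), against 22.8%. The pairs that cross the labels and the replicate numbers differed least. Between HK-2 array 1 and RPTEC/TERT1 array 2, MT1G was the 1 probe past 2-fold, with HK-2 higher, against 2.23% of probes higher and 3.35% lower. Between HK-2 array 2 and RPTEC/TERT1 array 1, 0 of 6 probes were past 2-fold, against 4.39% higher and 3.22% lower. The directions of MT1F, MT1X (A_33_P3236868) and MT1E (A_23_P420942) were kept in each replicate under all 4 scalings tried, while those of MT1G, MT1H and MT1M were not. Scaling also moved the middle of all probes, by 0.11 within replicate 1 in the percentile scaling, 0.96 after normexp and 1.08 in the authors' table. Relative to the middle of all probes MT1F within replicate 1 stood at 2.09 in the percentile scaling, 0.18 after normexp and 1.17 in the authors' table, and MT1X at -2.23, -3.90 and -3.01. Within replicate 2 the shifts were -0.26 after normexp and 0.41 in the authors' table.

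**Figure D4:**
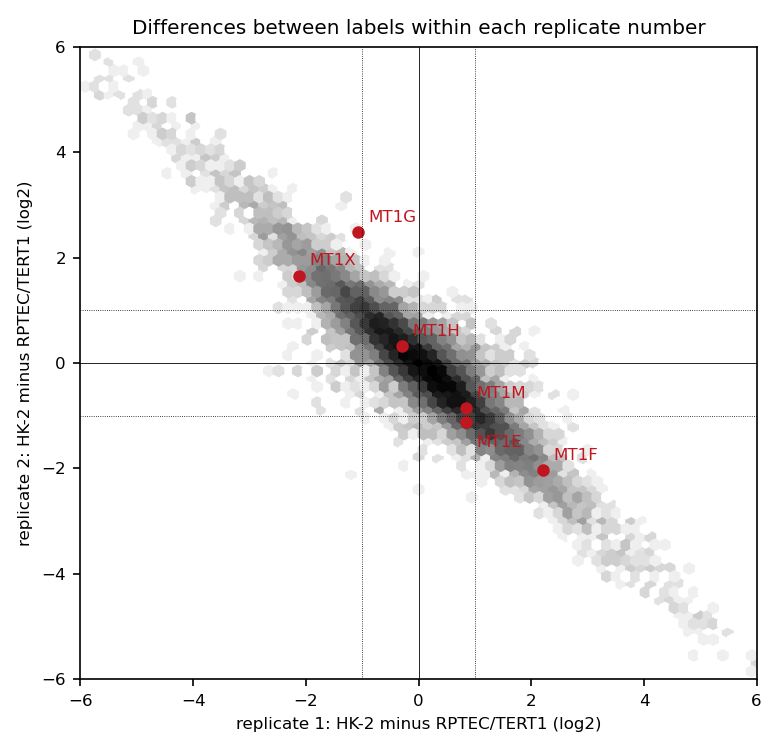
Difference HK-2 minus RPTEC/TERT1 (log2) within replicate 1 (x axis) and within replicate 2 (y axis) for the 6 metallothionein probes saturated on no array (red, named by gene) over all such probes (grey hexagons, darker where more probes lie), with dotted lines at 2-fold. MT1F at 2.20 and -2.04 and MT1X at -2.13 and 1.66 lie on the falling diagonal along which all probes spread, and MT1G at -1.08 and 2.49 lies off it.

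Over the 9 genes the median difference was 0.66 within replicate 1 and -0.78 within replicate 2, beside 0.12 and -0.08 over all genes. Within a label, replicate 1 exceeded replicate 2 by a median of 0.94 in HK-2 and fell by 0.50 below it in RPTEC/TERT1. Without saturated probes these medians were 0.31 and 0.016, and after quantile normalization 0.26 and -0.07. The first of these medians is close to the log2 range of the 75th percentiles (0.93), and 5 of the 9 genes have a saturated probe. Without saturated probes, 6 genes remained and the medians within replicates were 0.27 and -0.27.

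Markers of kidney epithelium and of fibroblasts moved over the same arrays. Of 4 fibroblast markers, DCN and LUM were well above background only on HK-2 array 2 and RPTEC/TERT1 array 1, the arrays where MT1F was low, and PDGFRB was so on none. The summed fibroblast level, in percent of the 75th percentile, ran from 10.5 to 189 on the HK-2 arrays and from 10.3 to 143 on the RPTEC/TERT1 arrays. That of the 11 proximal tubule markers ran from 135 to 244 on HK-2 and from 129 to 256 on RPTEC/TERT1, and the higher value on each label came from ANPEP, which was well above background only on the arrays where MT1F was high. Without ANPEP the sums were 103 and 132 on HK-2 arrays 1 and 2 and 126 and 118 on RPTEC/TERT1 arrays 1 and 2, so the order turned. LRP2, the megalin receptor, was at -3.34 and -1.72 on HK-2 and -2.77 and -3.06 on RPTEC/TERT1. GGT1 and MME were likewise lower on the arrays where MT1F was high. SLC22A8 went the other way, at -2.51 and -3.07 on HK-2 and -3.27 and -2.38 on RPTEC/TERT1. AQP1, well above background on 3 arrays, was at -4.57 and -4.61 on HK-2 and -5.35 and -4.06 on RPTEC/TERT1. The summed level of the 8 kidney epithelium markers was 5095 on HK-2 array 1 and 2126 on array 2, against 2142 on RPTEC/TERT1 array 1 and 4815 on array 2. PAX2, a kidney lineage factor, was at 2.90 and 2.66 on HK-2 array 1 and RPTEC/TERT1 array 2 and at the floor on the other arrays, and CDH1, the epithelial cadherin, was well above background on the same arrays as PAX2 only. Their part in the metallothionein values was not tested. In cells of a culture, fewer cells of a type and less RNA per cell cannot be told apart.

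Among other genes of the family, 6 of 9 listed were on the array, 4 were tested and 0 were called. The probe for MT1L, a pseudogene copy, had levels of 7.39 and 6.51 on HK-2 and 6.94 and 7.33 on RPTEC/TERT1 and was saturated on 3 arrays. It matches the MT1E probe A_23_P206724 at 38 of 42 aligned bases and the MT1B probe at 38 of 43. Its signal can therefore hold RNA of these members, and how much each gave was not tested. MT1HL1 had 7.17, 6.75, 6.46 and 7.21, the value on HK-2 array 2 being saturated. MT3 was well above background on all 4 arrays, at 3.69 and 2.73 on HK-2 and 3.80 and 3.31 on RPTEC/TERT1. It was lowest on HK-2 array 2 and highest on RPTEC/TERT1 array 1, with the labels overlapping. MT1IP, a pseudogene, stood near the floor at -2.63 to -4.46, and MT1DP and MT4 were not well above background on any array.

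Of 5 regulators of the family, all tested, 0 were called between labels. MTF1, the metal-sensing activator of the cluster, had levels of -0.64 and -0.43 on HK-2 and -0.86 and -0.17 on RPTEC/TERT1, with the labels overlapping. STAT3, which carries interleukin-6 type signals to metallothionein promoters, had the widest range of the 5, at -0.24 and -2.72 on HK-2 and -2.10 and -0.73 on RPTEC/TERT1, with the high and low arrays of MT1F. NFE2L2, the oxidant-sensing factor NRF2, was at -2.82 and -2.13 on HK-2 and -3.09 and -3.97 on RPTEC/TERT1. Its HK-2 arrays both lay above its RPTEC/TERT1 arrays, as for 4.36% of all genes.

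Zinc transporters supply and remove the metal that metallothioneins bind. Of 10 exporters of the SLC30 family 8 were tested, and of 14 importers of the SLC39 family 12 were, with 0 called in either list. SLC30A1, the plasma membrane zinc exporter, was steady at -0.03 and -0.52 on HK-2 and -0.07 and 0.02 on RPTEC/TERT1. SLC30A2, which loads zinc into vesicles, spanned -1.30 and -3.17 on HK-2 and -4.47 and -1.11 on RPTEC/TERT1. SLC30A3 was at -3.04 and -3.20 on HK-2 and -3.81 and -4.18 on RPTEC/TERT1. Both HK-2 arrays thus lay above both RPTEC/TERT1 arrays, as for 4.36% of all genes. SLC39A13, a zinc carrier of the secretory pathway, had levels of 5.21 and 2.24 on HK-2 and 2.50 and 5.37 on RPTEC/TERT1, high where MT1F was high. SLC39A9 lay at -0.79, -1.87, -2.12 and -0.71 in the same order.

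Copper handling genes and stress genes had the same division between arrays in part. Of 9 copper handling genes 0 were called, and SCO2, a copper chaperone of cytochrome c oxidase, had 1.59 and 0.08 on HK-2 and 0.23 and 1.53 on RPTEC/TERT1. ATP7B, a copper-exporting ATPase, had -0.10, -1.35, -1.27 and -0.34. Of 7 glucocorticoid-responsive genes 0 were called, and FKBP5, a chaperone that glucocorticoids induce, had -2.04 and -0.25 on HK-2 and 0.07 and -2.24 on RPTEC/TERT1, low where MT1F was high. TSC22D3, a further glucocorticoid target, had 0.36, 2.33, 1.70 and 0.93. Of 6 oxidative stress genes 0 were called, with NQO1, a quinone reductase, at -0.90, -2.49, -2.38 and -0.79 and SLC7A11, a cystine importer, at -0.04, 1.46, 1.18 and -0.19.

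Counted by the rule of opposite 2-fold differences within both replicates, 2 of the 9 metallothionein genes, 1 of 5 regulators, 1 of 8 zinc exporters tested, 2 of 12 zinc importers, 2 of 9 copper genes, 3 of 7 glucocorticoid-responsive genes and 2 of 6 oxidative stress genes changed direction. Over all genes tested this was 4505 of 16473 in both directions together, 14.6% in the direction of MT1F and 12.8% in the reverse one. The 2 metallothionein genes are MT1F and MT1G. MT1X was not counted, since its gene level is the mean of a saturated probe and of A_33_P3236868. The latter alone passed the rule, at -2.13 and 1.66. Nothing particular to the metallothioneins is read from these counts.

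**Figure D5:**
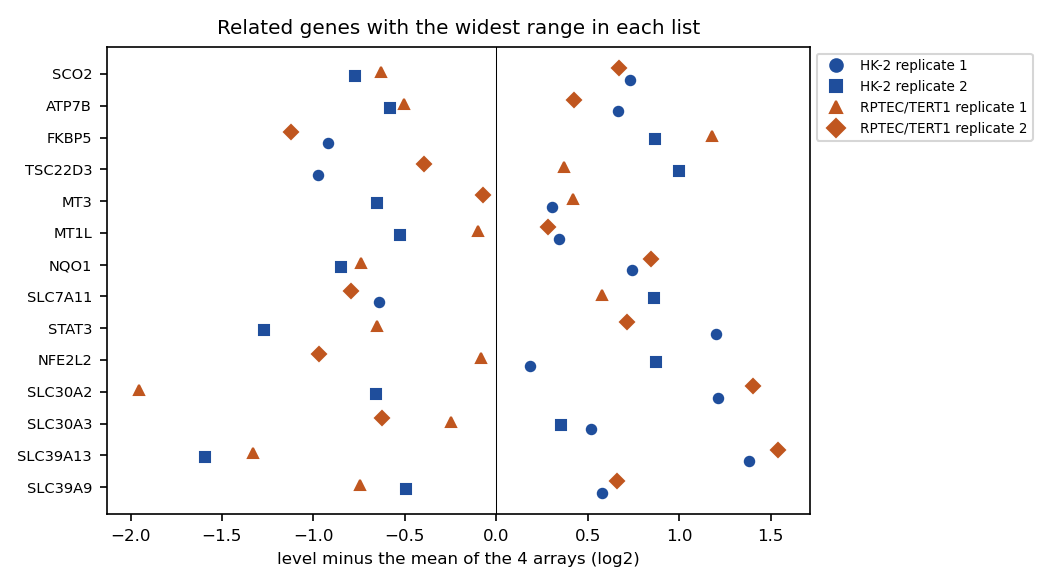
Levels of the 2 genes with the widest range in each related list, as the difference from the gene's own mean over the 4 arrays (log2, x axis), with 1 symbol an array. Circles (HK-2, replicate 1) and diamonds (RPTEC/TERT1, replicate 2) lie on one side for SLC39A13, SCO2, STAT3 and NQO1 and on the other for FKBP5 and SLC7A11. For MT3, NFE2L2 and SLC30A3 the circle and the diamond lie on opposite sides of the mean.

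The genes whose profile over the 4 arrays lay nearest to the mean of the 7 members well above background on every array were KBTBD4, ZYX, PTPN9, AP3S2 and TRIM23, of 13771 candidates. Their root mean square distances ran from 0.0119 to 0.0203 on the log2 scale. The mean profile itself was 0.44 and -0.50 on HK-2 and -0.26 and 0.33 on RPTEC/TERT1 relative to its own mean, and 5 of these 7 members have a saturated probe. With 4 arrays such a likeness is a description only.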

How the data were processed

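The authors deposited linear spot intensities, written by Agilent Feature Extraction 9.5.3.1 in 1 channel. Per the file headers the processed signal is background-subtracted and detrended, with no scaling from array to array. A further table that the authors deposited gives log2 values for these spots. How it was made is not given in the sources used. The medians of these log2 values were 8.33 and 7.14 on HK-2 and 6.75 and 6.72 on RPTEC/TERT1, so centring stays unknown, and they served as an alternative. The flags for spots well above background, saturated or outlying are other columns of the same deposited files. The methods name another RNA kit than the labels.

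After removal of control and outlier spots, each signal was taken over the array's 75th percentile, set to a floor of 0.0242 of it (a level of -5.37) and taken to log2. Repeat spots of a probe were averaged and differed by a median SD of 0.0759 to 0.129 log2 units. A gene is the mean of its probes well above background on at least 1 array. A bound ("at least") was set against the higher of the dim spot and the lowest signal well above background on its array. Labels were compared with limma 3.58.1 in R 4.3.3 (lmFit and eBayes, Benjamini-Hochberg over all genes tested, threshold 0.05) without a block, and the code was tested on simulated data. The methods state no test for single genes. Arrays carry no counts, so their number limits the precision. Samples were grouped by the cell line in the labels.

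Replicate numbers were checked for pairing: deviations of same-numbered arrays from their label means correlated at -0.81 over 16473 genes. Labels exchanged between arrays would also give a negative value, so the check cannot tell whether the numbers pair the arrays. The fit was therefore also run with the replicate number as a block. Alternatives were normexp (offset 50), the deposited log2 table, quantile normalization, no filter or a stricter filter on dim genes, outlier spots kept, the brightest probe or each probe in place of the mean, the replicate block and leaving out each array. Leaving out saturated probes and a crossed pairing were added after seeing the data.

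Named genes were the 9 members, MTF1, SLC30A1, the 2 genes of each related list with the widest range among those well above background on all arrays, and the 5 genes with the nearest profile. MT1HL1, MT1IP, MT1DP, MT4 and the marker genes were named in addition after their values were seen. Members and lists were chosen with earlier results of these data known. Endothelial (1 of 3) and leukocyte (2 of 3) markers were well above background on all arrays. 1 proximal tubule marker of the list is not reported here.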

Additional observations from a re-analysis of the deposited data

Results flagged for a closer look

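For 3 metallothionein probes the difference HK-2 minus RPTEC/TERT1 pointed one way within replicate 1 and the other way within replicate 2, with 1 array on each side, and the difference between both replicates was not tested. MT1F moved from 2.20 to -2.04 on the log2 scale, in the direction of 15% of unsaturated probes. MT1X (A_33_P3236868) moved from -2.13 to 1.66 and MT1G from -1.08 to 2.49, the latter a bound since RPTEC/TERT1 array 2 was not well above background, in the direction of 13.3% of unsaturated probes. For MT1G the first value was 0.96 after normexp and 0.72 in the deposited table, where the median of all probes stood at 0.96 and 1.08. Relative to that median MT1G was at 0.0047 and -0.36.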

How the results depend on the processing

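Every setting gave 0 called genes among the members and over all genes. With the replicate number as a block the median difference between labels was again -0.03, against -0.54 after normexp and 0.37 in the deposited table, and 5 genes had an unadjusted p below 0.05. With the crossed pairing, chosen after seeing the data, there were 0 calls, and 183 genes reached an unadjusted p below 0.05. The small differences between labels changed sign easily. After normexp MT1F was -0.38, and MT1H moved from 0.01 to 1.17 after normexp and 1.25 in the deposited table. In both of these settings the MT4 probe, well above background on no array, also read highest on HK-2 array 1. In the deposited table MT1A was 0.19, MT1B 0.34, MT1E 0.52, MT1M 0.37, MT1X 0.16 and MT2A 0.0061, and after quantile normalization MT1A was 0.10, MT1M 0.055 and MT2A 0.083. Without 1 array at a time, with the spread of a lone array taken from the other label, the median over members ran from -0.49 to 0.41. Single genes ran from -0.53 to 0.47 for MT1A, -0.49 to 0.30 for MT1B, -0.62 to 0.48 for MT1E, -0.99 to 1.16 for MT1F, -0.74 to 2.15 for MT1G, -0.14 to 0.17 for MT1H, -0.48 to 0.46 for MT1M, -0.66 to 0.21 for MT1X and -0.64 to 0.41 for MT2A. The median over members within replicate 1 was -0.32 after normexp, and within replicate 2 it was 0.043 in the deposited table and -0.049 after quantile normalization. The median of HK-2 array 1 minus array 2 was -0.25 after normexp, 0.15 in the deposited table, 0.26 after quantile normalization and 0.31 without saturated probes, and that of RPTEC/TERT1 was -0.074 after quantile normalization and 0.016 without saturated probes. The cause of these moves was not tested. Saturation limits MT2A and 4 further probes, and signal near background limits MT1G and MT1H.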
